A study of Homo sapiens with 6 samples.

Results

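The genes described here are the AMPK subunit genes PRKAA1, PRKAA2, PRKAB1, PRKAB2, PRKAG1 and PRKAG2, together with the upstream kinases STK11 and CAMKK2. They were picked by name from the deposited count table, 8 of its 78932 genes, and all 8 were among the 18474 genes tested, those that reached 10 counts in 3 or more libraries. The table holds poly(A) RNA-seq of T24, an established human urothelial carcinoma cell line, with 3 cultures transfected with a non-targeting siRNA (siNC) and 3 with siRNA against the transcriptional co-repressor and E3 ligase TRIM28 (siTRIM28). All 6 cultures carry the same batch label. T24 is 1 line, so the cultures stand for repeated transfections and not for different tumours, and neither the siRNA used for these libraries nor the hours between transfection and harvest is given in the sources used here. The comparison asks which transcripts differ when TRIM28 is depleted.

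AMPK is a heterotrimeric kinase that senses cellular energy. An alpha subunit (PRKAA1 or PRKAA2) carries the catalytic domain, a beta subunit (PRKAB1 or PRKAB2) is the scaffold and binds glycogen, and a gamma subunit (PRKAG1, PRKAG2 or PRKAG3) binds AMP, ADP and ATP. LKB1, the product of STK11, phosphorylates the activation loop of the alpha subunit when energy runs low, and CAMKK2 does so when calcium rises. TRIM28 has been described as the ligase that, joined to the cancer-testis proteins MAGE-A3 or MAGE-A6, ubiquitinates the alpha subunit encoded by PRKAA1. That is regulation of a protein, and RNA-seq measures only transcripts.

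Total counts lay between 11712623 and 14018052 per library. TRIM28 itself fell from 1419, 1393 and 1382 counts in siNC replicates 1 to 3 to 130, 96 and 109 in siTRIM28, 11.7-fold lower (log2 fold change -3.54, adjusted p = 1.03e-10 edgeR's quasi-likelihood F test, adjusted over all tested genes by Benjamini-Hochberg, as every adjusted p below). The knockdown separated the libraries widely: 41.8% of all tested genes passed an adjusted p of 0.05 (21.3% higher and 20.5% lower in siTRIM28), and in 52.0% the siNC and siTRIM28 libraries did not overlap. Replicates were uneven in their spacing. Counts of siNC replicates 1 and 2 differed by 1.08 times the counting variance per gene and those of siTRIM28 replicates 2 and 3 by 1.22 times, against 4.17 to 6.25 times for the other pairs within a group. No pair was within counting noise, the labels call all of them biological replicates, and each was kept as a sample. Of 10 urothelial markers, KRT8 and KRT18 were abundant in both groups, KRT7 was low, and the other 7, GATA3, KRT5 and UPK2 among them, were below 1 CPM in every library. Fibroblast, leukocyte and endothelial markers were below 1 CPM except COL1A1 (0.932 CPM in siNC and 3.28 CPM in siTRIM28, adjusted p = 2.21e-04) and CD68, which was at 348 and 351 CPM. The summed level of the 5 fibroblast markers was 1.16 to 2.16 CPM in siNC and 2.86 to 4.31 CPM in siTRIM28. Besides COL1A1, PDGFRB averaged 0.469 and 0.268 CPM, LUM 0.0480 and 0.0282, COL1A2 0.0501 and 0.0520, and DCN 0.0241 and 0.0845. The 4 endothelial markers summed to 0.433 to 0.504 CPM and 0.714 to 1.01 CPM. Of these, PECAM1 averaged 0.373 and 0.801 CPM and VWF 0.0962 and 0.113 CPM, and CDH5 and KDR had no counts. The part of these markers in the results on AMPK genes was not tested.

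Among the AMPK genes, PRKAG1 and CAMKK2 were lower in siTRIM28 and PRKAB2 and STK11 were higher. The catalytic subunit genes PRKAA1 and PRKAA2, the beta subunit gene PRKAB1 and the gamma subunit gene PRKAG2 did not pass the test. Thus 4 of 8 members were called, 2 in each direction, where 41.8% of all tested genes were called, and 5 of 8 had groups that did not overlap, where 52.0% of all genes did. The median log2 fold change of the members was -0.14, beside 0.02 for all tested genes. Both shares were near the background, so the count alone does not set these genes apart. In bulk RNA, a lower level in each cell and fewer cells carrying the transcript cannot be told apart, here and in every result that follows.

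**Figure D1:**
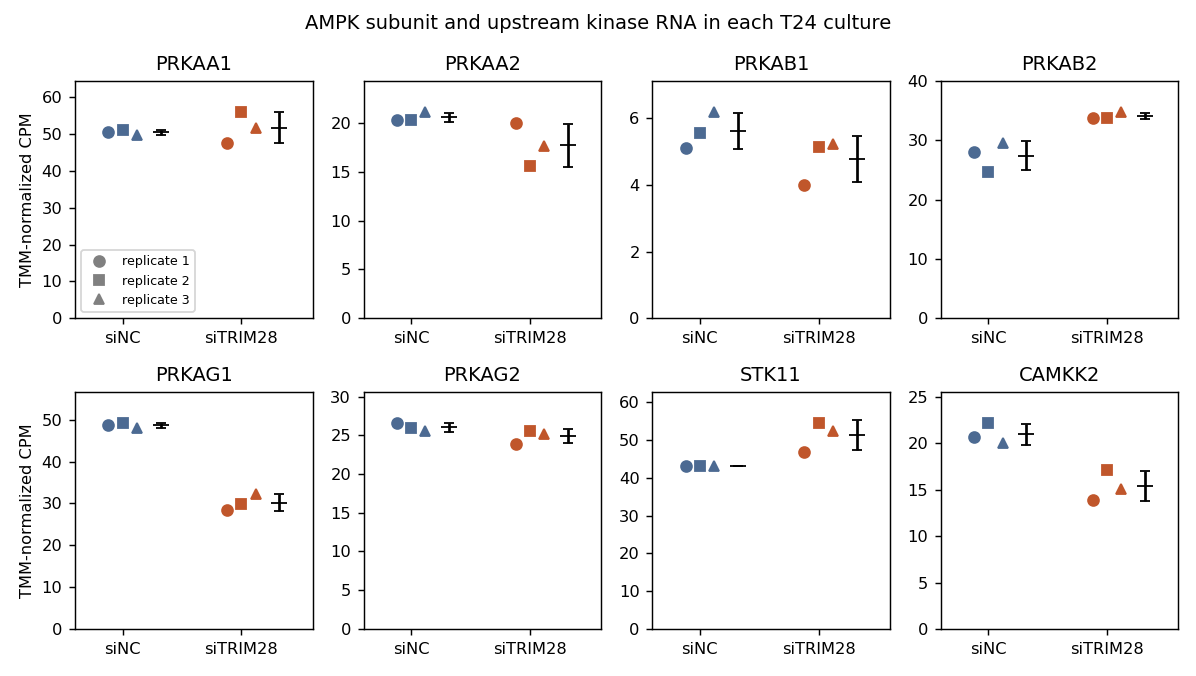
TMM-normalized CPM (y axis, from 0) of each AMPK subunit gene and of STK11 and CAMKK2 in the 3 siNC and 3 siTRIM28 cultures, with symbols for replicates and black bars for the mean ± SD (n = 3). PRKAG1 and CAMKK2 sit lower in every siTRIM28 culture, PRKAB2 and STK11 sit higher in every one, and PRKAA1, PRKAB1 and PRKAG2 overlap between the groups.

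The plot of levels by culture shows the 8 genes on their own scales, in TMM-normalized CPM, the counts scaled to library size. CPM compares a gene with itself across libraries, and levels of different genes are compared below in RPKM, which divides CPM by the gene length in kilobases that the authors list.

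The gamma subunit gene PRKAG1 changed most. PRKAG1 (ENSG00000181929, GRCh38 chromosome 12, 49002274 to 49018764, minus strand) was at 48.8, 49.3 and 48.1 CPM in the siNC cultures and at 28.4, 29.8 and 32.3 CPM in the siTRIM28 cultures. Every siTRIM28 culture was below every siNC culture, and the lowest siNC value stood well above the highest siTRIM28 value. The level was 1.62-fold lower, a log2 fold change of -0.69 (SE 0.0650, 95% interval -0.84 to -0.55, adjusted p = 6.20e-06), and 85.5% of all tested genes changed by less. An exact two-sided permutation test gave p = 0.1, the smallest value that 3 cultures against 3 allow, as it did for each of the other called members. The whole span of PRKAG1 lies inside a longer same-strand gene model without a symbol, ENSG00000288710 (chromosome 12, 49002274 to 49024074), so how reads were split between both models is uncertain. That row held 879, 865 and 783 counts in siNC and 603, 527 and 545 in siTRIM28, a log2 fold change of -0.49 (adjusted p = 2.96e-05). With the counts of both rows added, a choice made after the data were seen, PRKAG1 gave -0.57 (adjusted p = 3.50e-06).

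For the members with the largest fall and the largest rise, PRKAG1 and PRKAB2, the RefSeq promoter windows (GRCh38.p14, 250 bases before to 50 after the annotated start, all 8 members matched) are printed 5′ to 3′ in the direction of transcription, so that the letters around their annotated starts can be compared. Capitals mark matches, on either strand, to the TATA box TATAAA, the CCAAT box CCAAT, the GC box GGGCGG and the cAMP-response core TGACG. No marked matches overlap.
PRKAG1: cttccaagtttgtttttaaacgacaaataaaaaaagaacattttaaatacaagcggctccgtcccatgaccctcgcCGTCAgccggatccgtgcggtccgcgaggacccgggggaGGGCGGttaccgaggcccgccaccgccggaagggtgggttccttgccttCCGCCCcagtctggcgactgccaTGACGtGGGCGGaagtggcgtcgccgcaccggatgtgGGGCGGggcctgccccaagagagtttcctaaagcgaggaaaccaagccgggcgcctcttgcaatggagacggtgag
PRKAB2: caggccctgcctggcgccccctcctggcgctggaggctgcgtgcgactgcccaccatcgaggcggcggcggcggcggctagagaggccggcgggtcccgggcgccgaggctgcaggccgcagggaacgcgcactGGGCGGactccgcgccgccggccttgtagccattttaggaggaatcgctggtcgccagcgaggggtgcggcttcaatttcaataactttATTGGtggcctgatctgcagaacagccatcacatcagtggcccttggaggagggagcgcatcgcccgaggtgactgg
The PRKAG1 window, chr12:49018727-49019026 on the minus strand, held 4 GC boxes and 2 TGACG matches, with 29 CpG dinucleotides. The PRKAB2 window, chr1:147172421-147172720 on the minus strand, held 1 GC box and 1 CCAAT box, with 30 CpG dinucleotides. Over all 35116 RefSeq windows of this length, 45% held a GC box, 34.6% a CCAAT box, 24.6% TGACG and 11.5% TATAAA, and the median window had 14 CpG dinucleotides. None of the members' windows held TATAAA. GC boxes numbered 8 for PRKAA1, 5 for PRKAA2, 8 for CAMKK2, 2 for STK11 and 0 for PRKAB1, and 0 to 4 in the windows of PRKAG2. These are matches of letters in a fixed window, and no binding was measured.

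The second gamma subunit gene, PRKAG2, which encodes the gamma form mutated in a familial cardiomyopathy, moved little. PRKAG2 (ENSG00000106617, chromosome 7, 151556124 to 151876788, minus strand) was at 26.6, 25.9 and 25.6 CPM in siNC and at 23.9, 25.6 and 25.2 CPM in siTRIM28. Replicate 1 of siTRIM28 was the lowest of the 6, and the groups overlapped. Its log2 fold change was -0.07 (95% interval -0.21 to 0.07, adjusted p = 0.424). PRKAG3, the gamma form typical of skeletal muscle, had 0 counts in 5 libraries and 1 in the remaining library, siTRIM28 replicate 3, and was not tested.

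The beta subunit genes differed from each other. PRKAB2 (ENSG00000131791, chromosome 1, 147155106 to 147172550, minus strand) was at 28.1, 24.7 and 29.5 CPM in siNC and at 33.8, 33.8 and 34.8 CPM in siTRIM28. All siTRIM28 cultures were above all siNC cultures, and they lay closer together than the siNC cultures did. PRKAB2 rose 1.24-fold, a log2 fold change of 0.32 (SE 0.0733, 95% interval 0.16 to 0.48, adjusted p = 0.00459). PRKAB1 (ENSG00000111725, chromosome 12, 119667864 to 119680841, plus strand) had the fewest reads of the 8 genes, at 5.11, 5.56 and 6.19 CPM in siNC and 3.999, 5.15 and 5.24 CPM in siTRIM28. Replicates 2 and 3 of siTRIM28 reached into the siNC range, and replicate 1 lay below it. The log2 fold change of PRKAB1 was -0.24 with a wide interval, -0.58 to 0.11 (adjusted p = 0.257), at 56 to 79 counts per library.

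The catalytic subunit genes did not pass the threshold. PRKAA1, whose protein is the widely expressed alpha subunit (ENSG00000132356, chromosome 5, 40759389 to 40798159, minus strand), was at 50.5, 51.1 and 49.7 CPM in siNC and at 47.5, 56.0 and 51.7 CPM in siTRIM28. The siTRIM28 cultures spread on both sides of the siNC cultures. Its log2 fold change was 0.03 (95% interval -0.11 to 0.18, adjusted p = 0.720), and just 7.11% of all tested genes had a smaller change. PRKAA2, the alpha form abundant in muscle (ENSG00000162409, chromosome 1, 56645314 to 56715335, plus strand), was at 20.4, 20.3 and 21.2 CPM in siNC and at 20.0, 15.6 and 17.7 CPM in siTRIM28. The groups did not overlap, but siTRIM28 replicate 1 was almost level with the siNC cultures. The log2 fold change of PRKAA2 was -0.21 (SE 0.0865, 95% interval -0.40 to -0.02, adjusted p = 0.0730). Without siTRIM28 replicate 1 it was -0.31 with an adjusted p of 0.00161, so 1 library decided whether PRKAA2 was called.

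Of the upstream kinases, CAMKK2 was lower and STK11 higher. CAMKK2, the calcium and calmodulin-dependent kinase (ENSG00000110931, chromosome 12, 121237675 to 121298057, minus strand), was at 20.7, 22.2 and 20.1 CPM in siNC and at 13.9, 17.1 and 15.1 CPM in siTRIM28. No siTRIM28 culture reached the siNC range. CAMKK2 was 1.37-fold lower, a log2 fold change of -0.45 (SE 0.0847, 95% interval -0.64 to -0.27, adjusted p = 0.00114). STK11, the gene of the tumour suppressor LKB1 (ENSG00000118046, chromosome 19, 1177558 to 1228431, plus strand), was at 43.0, 43.1 and 43.2 CPM in siNC and at 46.8, 54.6 and 52.4 CPM in siTRIM28. The siNC cultures were nearly identical, and each siTRIM28 culture was higher, replicate 1 the least so. The rise was 1.19-fold, a log2 fold change of 0.25 (SE 0.0674, 95% interval 0.10 to 0.40, adjusted p = 0.0113). This call is fragile: without siTRIM28 replicate 3 the log2 fold change was 0.22 with an adjusted p of 0.0566, and with the closest pair of cultures in each group summed into 1 sample it was 0.22 with an adjusted p of 0.0887. The last 145 bases of the STK11 span are shared with CBARP on the opposite strand, which averaged 31.7 counts per library in siNC and 51.7 in siTRIM28, and the strand setting of the counting is not given in the sources used here. PRKAA1, PRKAB1, PRKAG1 and PRKAG2 also overlap a gene model on the opposite strand, none of which passed the test (adjusted p 0.0570 to 0.951).

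**Figure D2:**
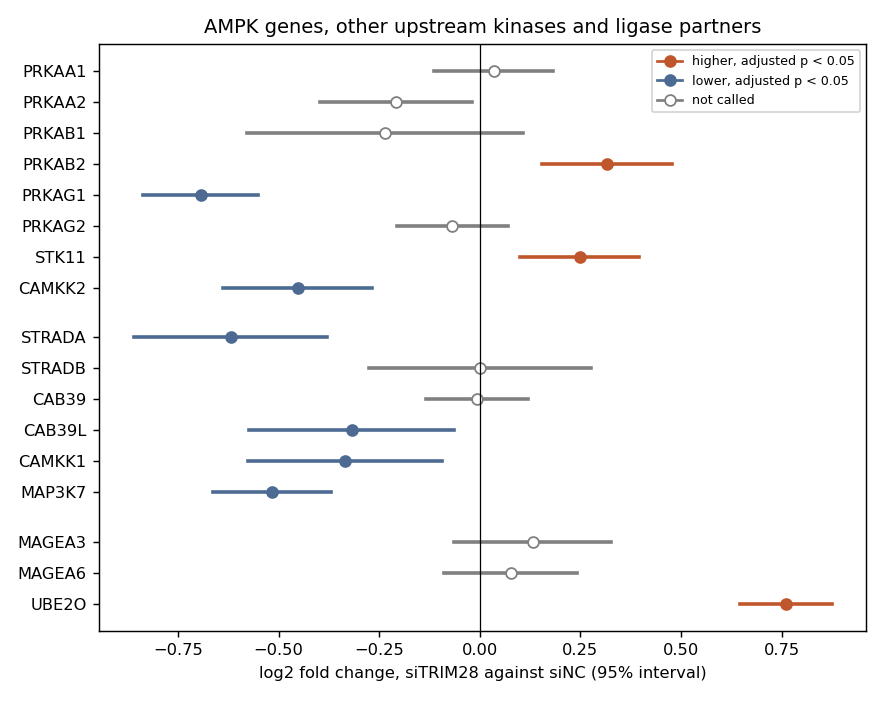
Log2 fold change of siTRIM28 against siNC (x axis) with its 95% interval for the 8 members, for the LKB1 partners and other AMPK kinases, and for the ubiquitin ligase partners, in that order from the top. Filled orange and blue points passed an adjusted p of 0.05 as higher and lower, and open grey points did not. PRKAG1 at -0.69 lies lowest among the members and UBE2O at 0.76 highest of the genes drawn.

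The plot of fold changes sets the members beside the proteins they work with. LKB1 acts in a complex with a STRAD pseudokinase (STRADA or STRADB) and the scaffold MO25 (CAB39 or CAB39L), and CAMKK1 and the TGF-beta-activated kinase MAP3K7 are further kinases reported to act on AMPK. Of these 6 genes, 4 were called lower and none higher, where 20.5% of all tested genes were called lower and 21.3% higher. Their median log2 fold change was -0.33, beside 0.02 for all tested genes, and the list was not tested as a set. STRADA was at 11.0, 9.68 and 10.4 CPM in siNC and at 6.28, 6.76 and 7.26 CPM in siTRIM28, a log2 fold change of -0.62 (SE 0.110, adjusted p = 7.82e-04), and the groups were clearly apart. STRADA shares 38952 bases with a same-strand gene model, ENSG00000125695, which had a log2 fold change of 0.27 (adjusted p = 0.0732), and 12754 bases with MAP3K3 on the opposite strand, which averaged 305 counts in siNC and 169 in siTRIM28 (log2 fold change -0.75, adjusted p = 3.01e-05). How reads were assigned among these rows is uncertain. MAP3K7 went from 57.6, 62.5 and 65.5 CPM to 40.8, 43.8 and 45.2 CPM, a log2 fold change of -0.52 (SE 0.0670, adjusted p = 8.19e-05). CAB39L (log2 fold change -0.32, adjusted p = 0.0456) and CAMKK1 (-0.33, adjusted p = 0.0292) passed only narrowly. The call of CAB39L was lost under 13 of 16 alternatives, among them each library left out (adjusted p 0.0520 to 0.152) and DESeq2 (adjusted p = 0.166). That of CAMKK1 was lost under 7, which were DESeq2 (adjusted p = 0.0940), the closest pairs summed (adjusted p = 0.0764), an adjusted p of 0.01, and the fits without siNC replicate 2, siNC replicate 3, siTRIM28 replicate 2 or siTRIM28 replicate 3 (adjusted p 0.0650 to 0.128). STRADB and CAB39 had log2 fold changes of 0.00 and -0.01 (adjusted p = 0.999 and 0.932), and the sign of each turned under other scalings.

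The ligase partners of AMPK were a separate short list. MAGEA3 was at 24.6, 22.5 and 22.7 CPM in siNC and 29.1, 23.6 and 23.6 CPM in siTRIM28 (log2 fold change 0.13, adjusted p = 0.265), and MAGEA6 was at 34.8, 35.2 and 37.2 CPM and 33.7, 39.9 and 39.6 CPM (log2 fold change 0.08, adjusted p = 0.449). Reads were thus counted to both TRIM28 partners in either condition, and neither passed the test. These paralogs are nearly identical, so their separate counts are uncertain, and expression of both genes does not follow from them. UBE2O, the E2/E3 enzyme that ubiquitinates the alpha subunit encoded by PRKAA2, rose from 63.9, 63.2 and 62.0 CPM to 101, 111 and 109 CPM, a log2 fold change of 0.76 (SE 0.0522, adjusted p = 5.54e-07).

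Per gene length, PRKAG1 was the most abundant AMPK subunit transcript in siNC, at 11.7 ± 0.144 RPKM (mean ± SD, n = 3, as for the following levels). PRKAA1 came next at 7.70 ± 0.110 RPKM, then PRKAB2 at 5.02 ± 0.450 and STK11 at 4.88 ± 0.0125 RPKM, whose levels were within the spread of PRKAB2. CAMKK2 (2.93 ± 0.157 RPKM), PRKAA2 (2.20 ± 0.0516), PRKAG2 (1.57 ± 0.0331) and PRKAB1 (0.931 ± 0.0900) followed, each apart from its neighbour by more than their SDs. In siTRIM28 the order at the top changed: PRKAA1 stood at 7.89 ± 0.649 RPKM and PRKAG1 at 7.24 ± 0.485 RPKM, whose mean ± SD ranges overlapped although PRKAA1 was above PRKAG1 in each siTRIM28 culture. PRKAB2 (6.25 ± 0.107) and STK11 (5.80 ± 0.454) had overlapping ranges as well, as did CAMKK2 (2.15 ± 0.227) and PRKAA2 (1.90 ± 0.234), and PRKAG2 (1.50 ± 0.0547) and PRKAB1 (0.794 ± 0.114) remained lowest. RPKM depends on the listed gene length, which is 16580 bases for PRKAG2 and 4166 for PRKAG1. It also depends on read assignment: ENSG00000288710, the same-strand model around PRKAG1, was at 21.0 RPKM in siNC and 15.0 RPKM in siTRIM28. The place of PRKAG1 in this order, and its change at the top, is therefore uncertain.

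**Figure D3:**
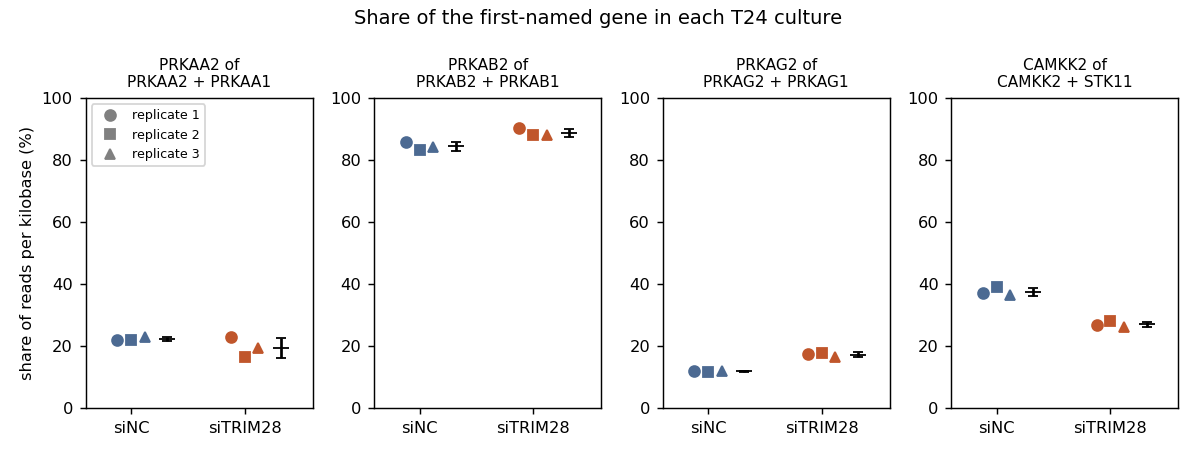
Share of the first-named gene in the summed reads per kilobase of a pair (y axis, in percent, whole range shown) in each culture, with symbols for replicates and black bars for the mean ± SD (n = 3). The PRKAG2 share moved from 11.8% to 17.2% and the CAMKK2 share from 37.5% to 27.0%, while the PRKAA2 shares overlapped between the groups.

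The plot of shares follows the balance within each subunit class, which needs no scaling between libraries. PRKAG2 made up 12.1%, 11.7% and 11.8% of the PRKAG1 and PRKAG2 reads per kilobase in siNC and 17.4%, 17.7% and 16.4% in siTRIM28. The shares did not overlap, and the log2 ratio of PRKAG2 to PRKAG1 was 0.63 higher. Reads counted to ENSG00000288710, whose split with PRKAG1 is uncertain, are left out of these shares. PRKAB2 held 85.9%, 83.1% and 84.0% of the beta subunit reads per kilobase in siNC and 90.3%, 87.9% and 88.0% in siTRIM28. The log2 ratio of PRKAB2 to PRKAB1 was 0.55 higher. Here too the groups were apart, and the beta form that was already dominant took more of the total. PRKAA2 held 22.0%, 21.8% and 23.0% of the alpha subunit reads per kilobase in siNC and 22.8%, 16.4% and 19.3% in siTRIM28. Replicate 1 of siTRIM28 lay among the siNC values, and the log2 ratio differed by -0.25. For the kinases, CAMKK2 made up 37.2%, 38.8% and 36.4% of the CAMKK2 and STK11 reads per kilobase in siNC and 26.8%, 27.9% and 26.2% in siTRIM28. Their log2 ratio differed by -0.70. Over these 4 ratios the exact two-sided permutation p was 0.1 for the beta, gamma and kinase pairs (0.133 after Benjamini-Hochberg adjustment) and 0.3 for the alpha pair, and 0.1 is the smallest value the design can give.

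Summed over each class, alpha subunit RNA was at 9.89, 9.97 and 9.85 RPKM in siNC and 9.38, 10.2 and 9.77 RPKM in siTRIM28, which overlapped. Beta subunit RNA was at 5.99, 5.44 and 6.42 RPKM against 6.85, 7.04 and 7.24 RPKM, higher in each siTRIM28 culture. Gamma subunit RNA was at 13.3, 13.4 and 13.1 RPKM against 8.24, 8.70 and 9.28 RPKM, lower in each. The ratio of gamma to alpha RNA, chosen after these sums were seen and so without a test, was 1.35, 1.34 and 1.33 in siNC and 0.878, 0.852 and 0.950 in siTRIM28. In siNC, gamma RNA exceeded alpha RNA in every culture, and in siTRIM28 it was below it in every culture. The gamma sums leave out ENSG00000288710, the same-strand model around PRKAG1, at 21.0 RPKM in siNC and 15.0 RPKM in siTRIM28. Whether gamma RNA lies above or below alpha RNA thus depends on how reads were split between that model and PRKAG1.

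Replicate 1 of siTRIM28 was the lowest of its group for 7 of 8 members and the highest for PRKAA2. Over all tested genes it was the lowest of its group in 37.8% and the highest in 37.7%. It was also the culture that stood apart in the count comparison given above, although for PRKAG1 and CAMKK2 replicates 2 and 3 lay farther from each other than the lowest 2 values did, and for PRKAB2 replicate 3 was the one apart. The calls of PRKAG1, PRKAB2 and CAMKK2 held without it. Over the 6 fits that each leave out 1 library, the log2 fold change lay between -0.76 and -0.65 for PRKAG1, between 0.24 and 0.37 for PRKAB2 and between -0.54 and -0.38 for CAMKK2.

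**Figure D4:**
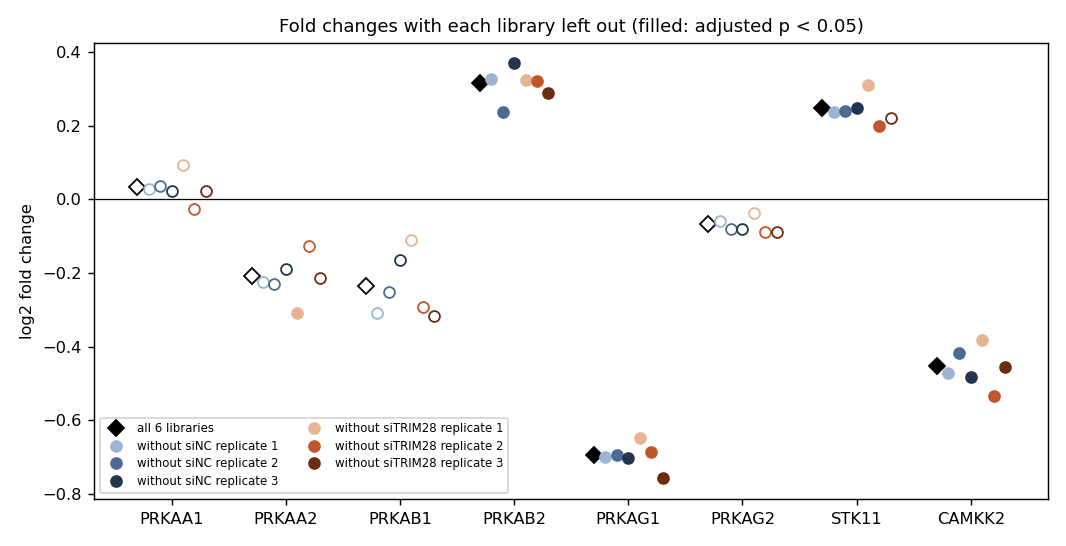
Log2 fold change (y axis) of each member with all 6 libraries (black diamond) and with each library left out in turn (circles, blue shades for siNC and orange shades for siTRIM28), filled where the adjusted p was under 0.05. PRKAG1, PRKAB2 and CAMKK2 stay filled throughout, STK11 is open without siTRIM28 replicate 3, PRKAA2 is filled only without siTRIM28 replicate 1, and PRKAA1 lies at -0.03 without siTRIM28 replicate 2.

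The plot of left-out libraries shows how far each member depends on a single culture: the calls of PRKAG1, PRKAB2 and CAMKK2 did not, and those of STK11 and PRKAA2 did.

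The genes whose levels most resembled the alpha subunits over the 6 libraries were looked up among 11339 genes with a symbol and a mean of at least 50 counts. For PRKAA1 they were DESI1 (Pearson r of log2 CPM 0.978), BUB3 (0.974) and GDI2 (0.973). For PRKAA2 they were ARL1 (0.994), CCDC115 (0.991) and ATXN1L (0.990), with log2 fold changes of -0.22, -0.61 and -0.08. Many genes came close, as r was above 0.9 for 51 genes with PRKAA1 and for 241 with PRKAA2. With 6 libraries that share the knockdown contrast, such values are a description of these libraries.

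Across the wider AMPK pathway, 35 of 60 tested genes on 7 lists passed, 14 higher and 21 lower, beside the 41.8% of all tested genes. The lists other than the kinases and ligase partners above hold AMPK-related kinases, phosphatases, lysosomal regulators, substrates and adenine nucleotide enzymes. The 12 AMPK-related kinases, which LKB1 can also activate, had 3 higher and 2 lower with a median log2 fold change of -0.15. NUAK1 fell from 24.05, 23.5 and 23.4 CPM to 5.36, 6.84 and 7.18 CPM (log2 fold change -1.88, adjusted p = 6.07e-08), and BRSK1, a kinase of neuronal polarity, rose by 0.83 on the log2 scale (adjusted p = 1.06e-05). Of the 3 phosphatase genes able to act on AMPK none passed, with a median log2 fold change of -0.17.

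**Figure D5:**
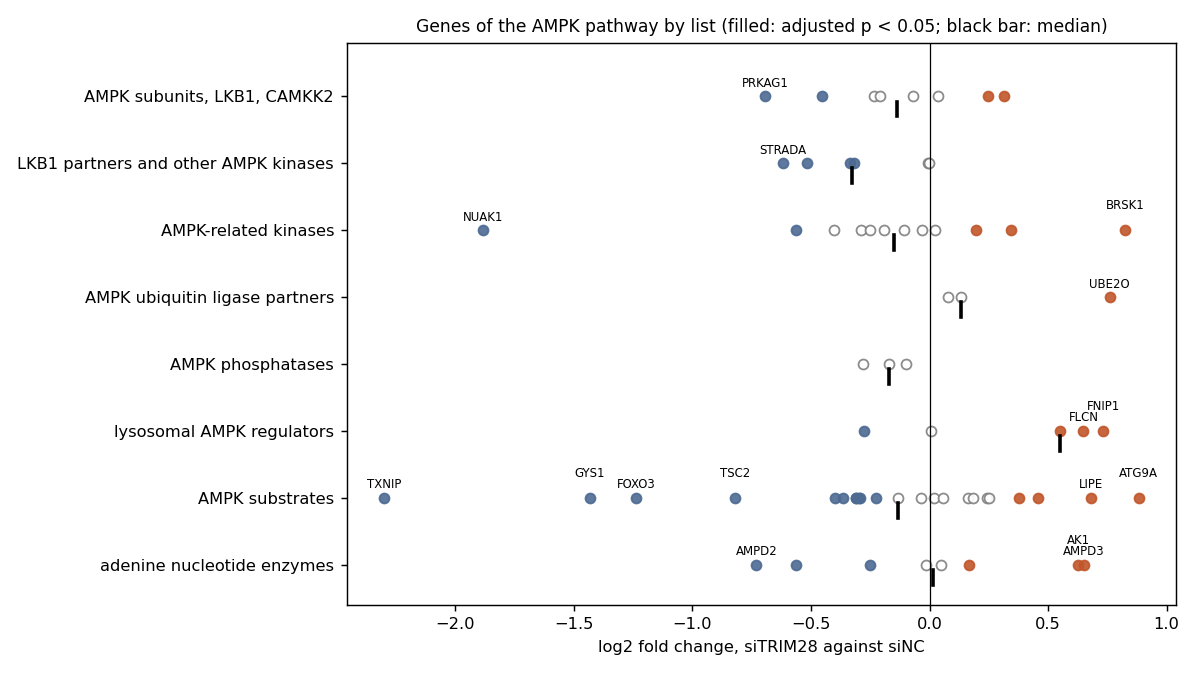
Log2 fold change of siTRIM28 against siNC (x axis) for every tested gene of the AMPK members and 7 pathway lists (rows), filled orange where higher and blue where lower at an adjusted p under 0.05, with a black bar at each list's median. Genes beyond 0.6 on the log2 scale in either direction that the text names carry their symbols, from TXNIP at -2.30 to ATG9A at 0.88.

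The plot by list shows substrates spread widest. The counts below stand beside 21.3% of all tested genes called higher and 20.5% called lower, and no list was tested as a set. Of 5 lysosomal regulators of AMPK or mTORC1, 3 rose and 1 fell (median 0.55). The folliculin gene FLCN rose by 0.65 (adjusted p = 4.32e-05) and its partner FNIP1 by 0.73 (adjusted p = 9.39e-06). LAMTOR1, a Ragulator subunit, fell by 0.28 (adjusted p = 0.0149). FLCN and FNIP1 each share part or all of their span with a same-strand gene model, so part of their reads may be assigned either way. FLCN also shares 5468 bases with MPRIP on the opposite strand, which averaged 2769 counts in siNC and 2695 in siTRIM28. The whole span of LAMTOR1 is shared with LRTOMT on the opposite strand, which averaged 1385 counts in siNC and 1305 in siTRIM28. As the strand setting is not given, the reads of LAMTOR1 are uncertain too. Of 24 AMPK substrates 23 were tested, with 4 higher and 11 lower (median log2 fold change -0.13). The largest fall was that of TXNIP, an inhibitor of glucose uptake, from 40.8, 40.9 and 38.8 CPM to 8.998, 8.28 and 7.09 CPM (log2 fold change -2.30, adjusted p = 6.12e-09). Glycogen synthase GYS1 (log2 fold change -1.43, adjusted p = 1.16e-06), the transcription factor FOXO3 (-1.24, adjusted p = 3.89e-07) and TSC2, the mTORC1 inhibitor (-0.82, adjusted p = 7.07e-06), also fell. Autophagy gene ATG9A rose by 0.88 (adjusted p = 2.72e-05) and LIPE, hormone-sensitive lipase, by 0.68 (adjusted p = 0.00767), the latter at 3.53 to 7.50 CPM. The whole span of LIPE is shared with LIPE-AS1 on the opposite strand, which averaged 91 counts in siNC and 93.3 in siTRIM28. The reads of LIPE are thus as uncertain as those of LAMTOR1.

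The enzymes that set the AMP, ADP and ATP balance moved in both directions. Of 9 genes 8 were tested, 3 higher and 3 lower, with a median log2 fold change of 0.02. Over all tested genes, 21.3% were higher and 20.5% lower. Adenylate kinase AK1 rose by 0.63 (adjusted p = 2.42e-04), and the AMP deaminase AMPD3 by 0.65 (adjusted p = 0.00608), whereas AMPD2, the more abundant deaminase in CPM, fell from 50.6, 48.8 and 50.4 CPM to 29.6, 29.8 and 30.8 CPM (log2 fold change -0.73, adjusted p = 1.72e-06). AK1 and ATG9A share part of their span with a same-strand gene model. AMPK phosphorylation and activity were not among these measurements.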

How the data were processed

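Poly(A) RNA of 3 siNC and 3 siTRIM28 cultures of T24 was sequenced with a stranded kit, and the submitters' processing notes name fastp 0.23.1, STAR 2.7.6a, featureCounts and GRCh38. The authors deposited raw read counts per gene, with coordinates and a gene length. The annotation release, the strand setting and the treatment of duplicate reads are not given in the sources used here. A second deposited table, of length-normalized values for genes that the authors selected as differentially expressed, was not used.

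Counts were scaled by TMM and compared by the quasi-likelihood functions of edgeR 4.0.16 under R 4.3.3, with condition the sole term, over genes that reached 10 counts in 3 or more libraries, with Benjamini-Hochberg adjustment over all of them and a threshold of 0.05. Library sizes were the sums over tested genes. Standard errors are the size of the log2 fold change over the root of its F statistic, and intervals are at 95%. Means are given ± SD. Ratios and single values were tested by exact two-sided permutation, which cannot go below p = 0.1 with 3 against 3. The procedure was tested on simulated data, and the criterion for passing was reset after the first run to recovery among well-counted genes, since low-count genes were often missed.

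Alternatives were scaling by total counts, upper quartile or RLE, limma-voom (limma 3.58.1), DESeq2 1.42.0, other filters on low counts, a replicate block, each library left out, the closest pairs summed and an adjusted p of 0.01. Named genes were the members, TRIM28, PRKAG3, the LKB1 partners, other AMPK kinases and ligase partners, and in each further list the called genes that moved by 0.58 or more on the log2 scale and the largest called rise and fall. The members, lists and rules were chosen with earlier results of these data known. P-values set the difference between the groups against the spread between these cultures. In the quasi-likelihood test that spread is estimated in part from the other genes.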

Additional observations from a re-analysis of the deposited data

How the results depend on the processing

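Over 16 alternatives, 5 of the 8 members and 18 of 23 other named pathway genes changed neither sign nor call. The members called numbered 3 to 4 under the other settings and 3 to 5 with 1 library left out, and the pathway genes called numbered 30 to 35 and 31 to 34. STK11 lost its call without siTRIM28 replicate 3, with the closest pairs summed and at an adjusted p of 0.01, PRKAA2 gained one without siTRIM28 replicate 1, and the sign of PRKAA1 turned to -0.026 without siTRIM28 replicate 2; leaving out 1 library moved PRKAA1 between -0.026 and 0.093. LAMTOR1 lost its call at an adjusted p of 0.01, CAB39L under 13 alternatives (adjusted p up to 0.166, and 0.0575 with the replicate block) and CAMKK1 under 7 (up to 0.128).

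STRADB and CAB39, both near 0, changed sign. STRADB was at 0.034 with upper-quartile scaling, 0.019 with total-count scaling, 0.00045 with at least 10 counts in every library, 0.0029 with the replicate block, 0.0047 with limma-voom, and -0.077 to 0.038 with 1 library left out. CAB39 was at 0.027 and 0.011 with these scalings, 0.00085 with the closest pairs summed, and -0.025 to 0.010 with 1 library left out. The causes were not tested.

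Replicate numbers did not pair the cultures: deviations of same-numbered cultures correlated at 0.05, -0.01 and 0.04, and not every culture correlated best with its own number. With the replicate block 4 members were called, and 7910 genes in all against 7723.

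Over all genes the calls numbered 5393 (adjusted p of 0.01) to 8252 (without siTRIM28 replicate 1), with 7804 under upper-quartile scaling, 5878 by DESeq2 and 5935 with the closest pairs summed. No alternative moved the median of all genes by over 0.05. Of the members, depth limits PRKAB1 most, at 56 to 79 counts per library. The intervals given for fold changes come from the quasi-likelihood fit and reflect the spread between these cultures as well as counting error.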
